A study of Mus musculus with 12 samples.

Results

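The 9 genes Tnf, Lta, Tnfsf9, Tnfsf10, Tnfsf12, Tnfsf13, Tnfsf13b, Tnfsf14 and Tnfsf15 encode ligands of the tumor necrosis factor (TNF) superfamily and were examined in bone marrow-derived macrophages (BMDMs). They were taken by gene symbol from the 23959 genes in the expression table, and all 9 were found there. Of these, 8 passed the filter on low values, at least 0.5 FPKM in at least 3 of 12 libraries, and belong to the 12315 genes tested, while Lta did not and has a test only in fits that let it in. FPKM scale fragments to transcript length and to the mapped fragments of a library. RNA-seq was performed on BMDMs of wild-type mice, which were grown from bone marrow over 7 days in medium with 20 ng/ml M-CSF. There were 4 groups of 3 libraries each. Control BMDMs received neither peptide nor LPS and carry a time of 0 h. Activation lasted 2 h in the LPS group, at 200 ng/ml of LPS, a bacterial ligand of TLR4. The other 2 groups received 1 μM or 10 μM cpTLR-i, a cell-penetrating inhibitor peptide of Toll-like receptor (TLR) signaling, 1 h before the same LPS activation. There was no group with the peptide alone, and treatment cannot be told apart from the difference in time between control and the other groups. It is not given in the sources used here whether replicate libraries stem from different mice or cultures. The p-values therefore rest on the spread among these 12 libraries, and that spread may be technical.

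Ligands of the TNF superfamily are mostly made as trimeric membrane proteins, and several are released from the cell surface or inside the cell by proteases. They bind receptors of the TNF receptor superfamily, which recruit TRAF adaptors or death domain proteins and so activate NF-κB and MAP kinases or cell death. In macrophages, TLR ligands are known to turn on Tnf through NF-κB and MAP kinases within a short time, and TNF in turn acts on many neighboring cells.

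The libraries resembled each other closely within groups, with Pearson correlations of log2(FPKM + 0.25) of 0.995 to 0.997 across genes, and 10144 to 10905 genes per library were at 1 FPKM or more. The summed FPKM of 7 macrophage markers was 14266 to 14842 in control and 11926 to 12733 in the LPS-activated groups, with Lyz2 as the highest. Lists of markers of other cell types were checked as summed FPKM per library. The T cell list, 8 genes led by Cd28, lay between 58.8 and 64.9 FPKM in control, between 25.1 and 26.0 after LPS, between 26.8 and 30.3 after 1 μM, and between 41.0 and 47.4 after 10 μM, with Cd3e at no more than 0.0589 FPKM in any library. In the same list, Cd4 had group means of 1.77 to 2.43 FPKM, and Cd3g reached 0.137 FPKM in a 10 μM library. The neutrophil list, 8 genes led by S100a9, lay between 11.8 and 14.2 FPKM in control, between 28.7 and 29.7 after LPS, between 24.0 and 27.6 after 1 μM, and between 34.5 and 47.2 after 10 μM. Ly6g of that list was at no more than 0.0688 FPKM, while Mpo, Prtn3 and Elane were called higher with 10 μM against LPS, from 0.423, 0.394 and 0.466 to 1.05, 0.775 and 0.987 FPKM. The mast cell and basophil list, led by Hdc, summed to between 4.04 and 4.44 FPKM after LPS and between 2.43 and 2.50 after 1 μM, and to no more than 0.211 after 10 μM and 0.0447 in control. The B cell, NK cell, dendritic cell and stromal cell lists each summed to at most 1.21 FPKM in a library. Lck (T cells), Zbtb46 (dendritic cells), Pdgfrb (stromal cells) and Hdc were called higher with LPS and lower with 10 μM against LPS, as Tnf was. They reached 0.5 FPKM, the level of the filter, only with LPS or with 1 μM. Cd28 went the other way, called lower with LPS and higher with 10 μM against LPS. Cd79b (B cells) was called lower with LPS and was not called with 10 μM against LPS. Klrk1 (NK cells) was too low to be tested. Klrk1 had a mean of 0.0200 ± 0.0131 FPKM in control, 0.531 ± 0.116 after LPS, 0.236 ± 0.0379 after 1 μM and 0.0557 ± 0.0352 after 10 μM. In the same order Lck had 0.0573 ± 0.050, 0.739 ± 0.122, 0.510 ± 0.0762 and 0.153 ± 0.0584 FPKM. Zbtb46 had 0.0545 ± 0.0285, 0.565 ± 0.0469, 0.717 ± 0.141 and 0.298 ± 0.177 FPKM. Pdgfrb had 0.0437 ± 0.0142, 0.652 ± 0.0167, 0.624 ± 0.0252 and 0.0518 ± 0.00783 FPKM. These markers moved with the groups, and their part in the results was not tested. In these bulk libraries, fewer cells with a transcript and less of it per cell cannot be told apart.

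The promoters of 4 members that LPS raised are shown first, as the 250 bases before the start site from RefSeq (build GRCm38.p6), 5′ to 3′ on the strand of the gene. Capitals mark a match to the TATA box (TATAAA) or to the AP-1 site (TGANTCA), 2 of 5 motifs searched on both strands. Tnf is on chromosome 17, with this window at chr17:35202008-35202257 on the minus strand. Tnfsf14 is also on chromosome 17, at chr17:57194182-57194431 on the minus strand. Tnfsf10 has its window at chr3:27316827-27317076 on the plus strand, and Tnfsf15 at chr4:63745060-63745309 on the minus strand.
Tnf: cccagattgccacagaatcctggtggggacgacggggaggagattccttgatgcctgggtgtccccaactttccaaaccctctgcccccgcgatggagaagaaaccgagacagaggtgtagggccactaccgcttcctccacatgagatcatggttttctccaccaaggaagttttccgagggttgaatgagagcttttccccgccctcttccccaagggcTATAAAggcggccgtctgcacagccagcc
Tnfsf14: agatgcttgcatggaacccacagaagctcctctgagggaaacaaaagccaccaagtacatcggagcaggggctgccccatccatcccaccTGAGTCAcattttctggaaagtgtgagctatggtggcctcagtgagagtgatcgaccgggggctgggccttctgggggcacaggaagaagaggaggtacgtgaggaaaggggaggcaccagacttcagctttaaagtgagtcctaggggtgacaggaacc
Tnfsf10: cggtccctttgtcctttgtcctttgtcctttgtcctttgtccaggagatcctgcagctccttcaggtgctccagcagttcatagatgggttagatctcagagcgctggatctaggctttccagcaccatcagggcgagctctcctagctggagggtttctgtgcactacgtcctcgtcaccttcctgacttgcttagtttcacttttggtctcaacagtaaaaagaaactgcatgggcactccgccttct
Tnfsf15: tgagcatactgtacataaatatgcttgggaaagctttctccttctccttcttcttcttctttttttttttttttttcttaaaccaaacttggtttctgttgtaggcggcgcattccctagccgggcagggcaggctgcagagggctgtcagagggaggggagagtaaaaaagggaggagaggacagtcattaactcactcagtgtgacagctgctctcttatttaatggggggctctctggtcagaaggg

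The Tnf window held a TATA box whose first base lay at position -29 from the start site, and that of Tnfsf14 held an AP-1 site from position -160. The TATA box letters were found in 12.4% of 32851 windows of the same length and the AP-1 site in 6.75%. The windows of Tnfsf10 and Tnfsf15 held no match to either motif or to the 3 others searched, the κB consensus, the core of the interferon-stimulated response element (ISRE, GAAANNGAAA) and the CRE (TGACGTCA), which were in 7.25%, 2.98% and 1.55% of windows. Among the other windows, that of Lta held the TATA box letters from position -167, far from the -29 of Tnf, and this window overlaps the listed span of Lta itself. The window of Tnfsf13 held an AP-1 site, and 1 of 2 windows of Tnfsf13b an AP-1 site and an ISRE core. That Tnfsf13b window, at chr8:10006383-10006632, lies within the listed span of Tnfsf13b, and the other window overlaps this span. Windows were found for 7 of the 9 members, not for Tnfsf9 and Tnfsf12. A match describes letters only, and the distal regions of these genes lie outside the windows.

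The level of these ligands spanned a wide range, and their order changed with LPS. Per transcript length, control BMDMs expressed Tnfsf12 most, at 55.3 ± 1.5 FPKM (SD, n = 3), followed by Tnfsf13 at 24.7 ± 1.75, Tnf at 3.24 ± 0.382, Tnfsf13b at 1.19 ± 0.112 and Tnfsf9 at 0.876 ± 0.359. The remaining 4, Tnfsf14, Tnfsf10, Tnfsf15 and Lta, had means of 0.0414 to 0.255 FPKM. Tnfsf13b and Tnfsf9 overlapped in this order, as did Tnfsf10 and Tnfsf15. With LPS, Tnf came first at 940 ± 7.77 FPKM, followed by Tnfsf9 at 159.5 ± 2.7, Tnfsf15 at 55.6 ± 2.92, Tnfsf12 at 37.2 ± 1.25 and Tnfsf13 at 18.1 ± 0.823. Tnfsf10 at 4.24 ± 0.738, Tnfsf14 at 1.17 ± 0.141, Tnfsf13b at 1.04 ± 0.143 and Lta at 0.386 ± 0.174 came last, and the libraries of Tnfsf14 and Tnfsf13b overlapped. With 10 μM cpTLR-i before LPS, Tnf was still the highest at 277 ± 27.1 FPKM, but Tnfsf12 was second at 59.2 ± 2.64, ahead of Tnfsf13 at 18.5 ± 1.13 and Tnfsf9 at 16.0 ± 2.04, which overlapped each other.

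**Figure D1:**
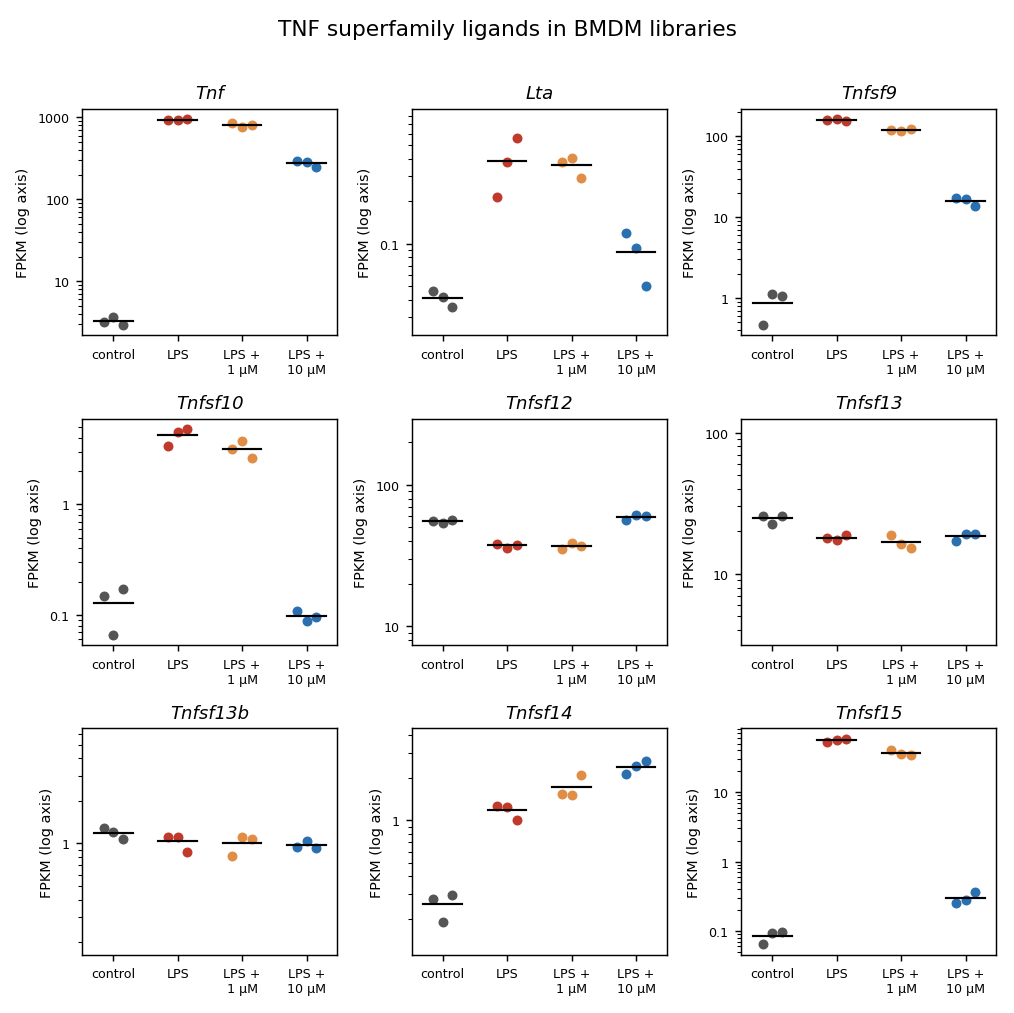
FPKM of the 9 ligands in each of the 12 libraries on log axes, with a point per library and a line at the mean of each group of 3. Tnf, Tnfsf9, Tnfsf10 and Tnfsf15 are high with LPS and lower with 10 μM cpTLR-i, Tnfsf14 is highest with 10 μM, and Tnfsf12, Tnfsf13 and Tnfsf13b vary little on this scale.

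To ask which ligand genes LPS and the peptide moved, group means were compared with limma on log2(FPKM + 0.25), with p-values adjusted over all 12315 genes, and calls required both an adjusted p below 0.05 and more than a 1.5-fold difference. LPS against control raised 5 of the 8 tested members, Tnf, Tnfsf9, Tnfsf10, Tnfsf14 and Tnfsf15, and lowered 0, where 11.0% of all tested genes were called higher and 35.8% lower. The median log2 fold change of the 8 was 2.53 and that of all tested genes -0.39. Tnfsf10 and Tnfsf15 reached the 0.5 FPKM of the filter only with LPS and with 1 μM, and Tnfsf14 only in the LPS-activated groups. They thus entered the test through groups in which they were high, and their calls are not independent of the filter. This holds for the falls of Tnfsf10 and Tnfsf15 with 10 μM as well. With 1 μM cpTLR-i against LPS, 0 members were called higher and 1, Tnfsf15, lower, against 0.495% and 0.625% of all genes. No other member passed at an unadjusted p under 0.05 with the same fold minimum.

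With 10 μM cpTLR-i against LPS, 4 of 8 members were lower (Tnf, Tnfsf9, Tnfsf10 and Tnfsf15) and 2 higher (Tnfsf12 and Tnfsf14), where 9.44% of all genes were called lower and 21.5% higher. Their median log2 fold change was -0.92, and that of all genes 0.22. Against 1 μM, 10 μM lowered the same 4 genes and raised Tnfsf12, with 9.05% of all genes lower and 15.9% higher. Against control, 4 members were higher with 10 μM (Tnf, Tnfsf9, Tnfsf14 and Tnfsf15) and 0 lower, where 8.57% of all genes were called higher and 17.1% lower. These comparisons share their control, LPS or peptide libraries and are not independent of each other.

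The median of all genes moved between groups, by -0.39 with LPS against control, 0.22 with 10 μM against LPS, 0.17 with 10 μM against 1 μM and -0.17 with 10 μM against control on the log2 scale. Scaling libraries by their median ratio changed the split of all calls from 1355 higher and 4405 lower to 2094 and 2284 for LPS against control. It changed the split from 2649 higher and 1163 lower to 1618 and 1532 for 10 μM against LPS, from 1964 and 1114 to 1319 and 1388 for 10 μM against 1 μM, from 1056 and 2108 to 1440 and 1281 for 10 μM against control, and from 61 and 77 to 44 and 114 for 1 μM against LPS. Under that scaling the members called for 10 μM against LPS were 1 higher and 4 lower, since Tnfsf12 was no longer called. Tnfsf12 was also lost for 10 μM against 1 μM, which left 0 higher.

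**Figure D2:**
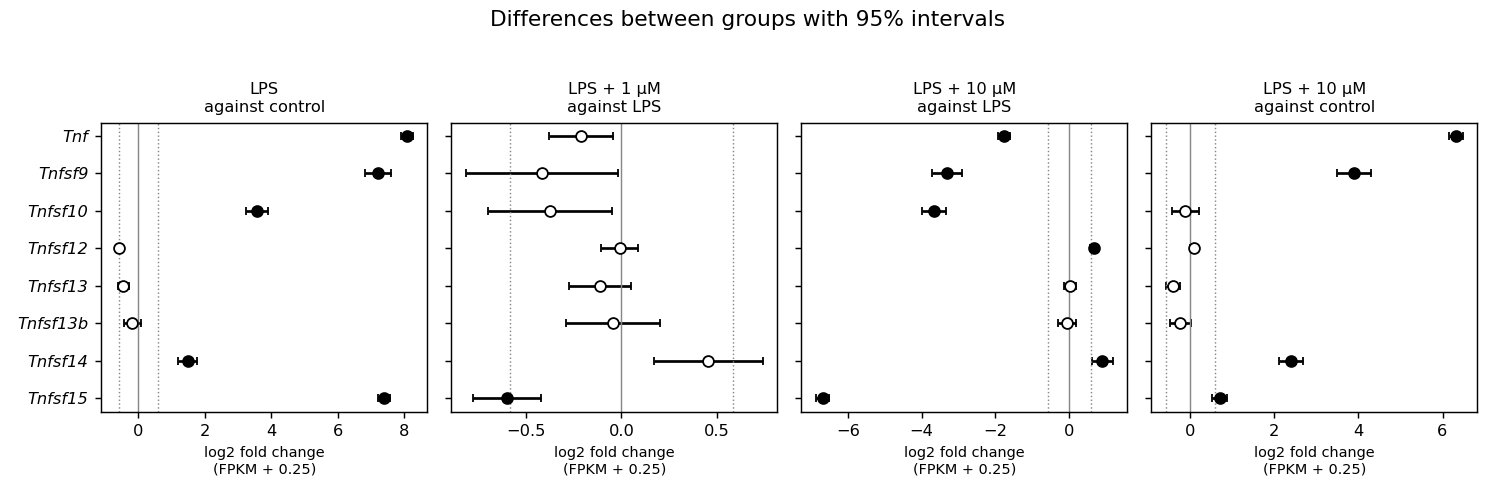
Log2 fold change of FPKM + 0.25 with its 95% interval for the 8 tested ligands in 4 comparisons, each panel with its own axis. Filled points were called, open points were not, and dotted lines mark the 1.5-fold minimum. LPS against control has 5 filled points to the right, and 10 μM cpTLR-i against LPS has 4 to the left and 2 to the right.

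Tnf, gene ID 21926, lies at chr17:35199367-35202007 (GRCm38.p6) and encodes TNF-α, a central inflammatory cytokine of macrophages. Its level was 3.16, 3.66 and 2.90 FPKM in the control libraries and 931, 941 and 946 FPKM in those with LPS. It was 853, 768 and 815 FPKM at 1 μM of the peptide, and 297, 287 and 246 FPKM at 10 μM. No library of one group overlapped another group. The log2 fold change of LPS against control was 8.08 ± 0.077 (SE, adjusted p = 4.3e-17, limma). With 1 μM the fitted difference from LPS was -0.21, with a 95% interval of -0.38 to -0.05 and an adjusted p of 0.073, which missed the threshold. With 10 μM Tnf fell by 1.77 ± 0.077 on the log2 scale against LPS (adjusted p = 2.0e-10), to 29.5% of the mean FPKM with LPS, and it was 6.31 ± 0.077 above control (adjusted p = 1.9e-15). Tnf thus had the highest level of the 9 in every LPS-activated group.

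Tnfsf9, gene ID 21950 at chr17:57105287-57107758, encodes 4-1BB ligand, a costimulator that binds 4-1BB (Tnfrsf9) on activated T cells. The control libraries had 0.462, 1.11 and 1.06 FPKM and those of the LPS group 159, 162 and 157. The peptide libraries had 119, 117 and 122 FPKM at 1 μM, and 17.3, 17 and 13.6 at 10 μM. All 4 groups were separate, and the spread among control libraries was the widest in relative terms. LPS raised Tnfsf9 by 7.21 ± 0.184 on the log2 scale (adjusted p = 4.9e-13, limma). The difference with 1 μM was -0.42, with an interval of -0.82 to -0.02 and an adjusted p of 0.13. At 10 μM it fell by 3.31 ± 0.184 against LPS (adjusted p = 2.6e-09) and by 2.89 ± 0.184 against 1 μM (adjusted p = 1.3e-08). It was still 3.90 ± 0.184 above control (adjusted p = 8.6e-10).

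Tnfsf15, gene ID 326623 at chr4:63724600-63745059, encodes TL1A, a ligand of death receptor 3 (Tnfrsf25) that costimulates lymphocytes. Control libraries were at 0.0640, 0.0938 and 0.0979 FPKM and LPS libraries at 52.8, 55.5 and 58.6. Peptide libraries were at 39.9, 35.9 and 33.9 FPKM for 1 μM, and at 0.251, 0.278 and 0.358 for 10 μM. Each group stood apart from the others, and 10 μM lay close to control. The log2 fold change was 7.38 ± 0.082 for LPS against control (adjusted p = 1.3e-16, limma), on a scale that understates changes of genes near 0 FPKM. Tnfsf15 was the only tested member called with 1 μM, where it fell by 0.60 ± 0.082 against LPS (adjusted p = 0.00046), to 65.8% of the mean FPKM. That value was close to the fold minimum of 0.585, and the call was lost without LPS library 3 (-0.56) or without 1 μM library 3 (-0.55). With 10 μM it fell by 6.68 ± 0.082 (adjusted p = 2.2e-15), to 0.532% of the mean FPKM with LPS. It remained 0.70 ± 0.082 above control (adjusted p = 6.2e-06), a difference of 0.26 with a pseudocount of 1, at which it was not called.

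Tnfsf10, gene ID 22035 at chr3:27317077-27339665, encodes TRAIL, a ligand that can trigger apoptosis through death receptors. Control libraries had 0.149, 0.0659 and 0.171 FPKM, and LPS libraries 3.40, 4.49 and 4.81. At 1 μM the values were 3.20, 3.77 and 2.66 FPKM, and at 10 μM they were 0.109, 0.0876 and 0.0957. The 1 μM libraries overlapped LPS, and the 10 μM libraries overlapped control. LPS raised it by 3.56 ± 0.150 on the log2 scale (adjusted p = 8.9e-11, limma), and 10 μM lowered it by 3.68 ± 0.150 against LPS (adjusted p = 1.0e-10). With 1 μM the difference from LPS was -0.37, with an interval of -0.70 to -0.05 and an adjusted p of 0.10. Between 10 μM and control the difference was -0.11, with an interval of -0.44 to 0.21 (adjusted p = 0.51).

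Lta, gene ID 16992 at chr17:35203165-35205578, encodes lymphotoxin-α, which shares the TNF receptors, and lies 1157 bases from Tnf. It was low in every library, with 0.0465, 0.0420 and 0.0357 FPKM in control, and 0.215, 0.380 and 0.563 in the LPS group. Values at 1 μM were 0.378, 0.404 and 0.293 FPKM, and at 10 μM 0.119, 0.0926 and 0.0502. The libraries with LPS and with 1 μM overlapped each other and lay above those of control and 10 μM, which were also separate from each other. Only 1 library reached the filter of 0.5 FPKM. In a fit with no filter the log2 fold change of Lta was 1.09 ± 0.173 for LPS against control (adjusted p = 0.00031, limma) and -0.88 ± 0.173 for 10 μM against LPS (adjusted p = 0.0019).

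Tnfsf14 differed from the other members that LPS raised in that its level was higher, not lower, with the peptide. Gene ID 50930 at chr17:57189474-57194181, it encodes LIGHT, a ligand of HVEM (Tnfrsf14) and the lymphotoxin-β receptor. Its libraries were at 0.278, 0.190 and 0.296 FPKM in control, and 1.27, 1.24 and 1.01 in the LPS group. They were at 1.53, 1.52 and 2.09 FPKM for 1 μM, and at 2.11, 2.43 and 2.62 for 10 μM. The 4 groups were separate and in that order. LPS raised it by 1.5 ± 0.131 on the log2 scale (adjusted p = 1.6e-07, limma) and 10 μM raised it further, by 0.89 ± 0.131 against LPS (adjusted p = 3.9e-05), a ratio of mean FPKM of 2.04. With 1 μM it lay 0.46 ± 0.131 above LPS (adjusted p = 0.030), under the fold minimum, and 10 μM lay 0.44 ± 0.131 above 1 μM (adjusted p = 0.010), also under it. Under median-ratio scaling the rise with 10 μM against LPS was 0.68 (adjusted p = 4.0e-04), and the difference with 1 μM was 0.40 (adjusted p = 0.053). Tnfsf9 and Tnfsf14 are 81715 bases apart, with Cd70 between them.

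Tnfsf12, gene ID 21944 at chr11:69686240-69696098, encodes TWEAK, a ligand of Fn14 (Tnfrsf12a). Its level was 55.6, 53.7 and 56.7 FPKM in control, and 38.3, 35.9 and 37.6 in the LPS group. At 1 μM it was 35.2, 38.9 and 37.0 FPKM, and at 10 μM 56.3, 61.3 and 60.0. LPS and 1 μM overlapped, and control and 10 μM overlapped at a higher level. LPS against control gave -0.57 ± 0.045 on the log2 scale (adjusted p = 5.2e-08, limma), just inside the fold minimum, so it was not called. It was called with -0.59 without control library 2 and without LPS library 1, and with -0.63 after quantile normalization. With 10 μM it rose by 0.66 ± 0.045 against LPS (adjusted p = 1.8e-08) and by 0.67 ± 0.045 against 1 μM (adjusted p = 2.0e-08). Under median-ratio scaling these values were -0.15 for LPS against control, 0.42 for 10 μM against LPS and 0.50 for 10 μM against 1 μM, none past the fold minimum.

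Tnfsf13, gene ID 69583 at chr11:69682577-69685554, encodes APRIL, and Tnfsf13b, gene ID 24099 at chr8:10006229-10036000, encodes BAFF, both known as survival factors of B lineage cells. Tnfsf13 was at 25.8, 22.7 and 25.6 FPKM in control, and 17.8, 17.4 and 19.0 in the LPS group. At 1 μM it was 18.8, 16.2 and 15.2 FPKM, and at 10 μM 17.2, 19.2 and 19.1. Control was above all other libraries, which overlapped. The log2 fold change was -0.44 ± 0.076 for LPS against control (adjusted p = 1.0e-04, limma) and -0.41 ± 0.076 for 10 μM against control (adjusted p = 0.00032), neither past the fold minimum. With 10 μM against LPS it was 0.03, with an interval of -0.13 to 0.20. Under median-ratio scaling, LPS against control gave -0.02 and 10 μM against LPS -0.21.

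Tnfsf13b was at 1.29, 1.21 and 1.07 FPKM in control, and 1.12, 1.12 and 0.871 in the LPS group. At 1 μM it was 0.822, 1.10 and 1.07 FPKM, and at 10 μM 0.939, 1.05 and 0.933. The groups overlapped, apart from control and 10 μM. It was not called in any of the 5 comparisons. The difference of LPS from control was -0.17, with an interval of -0.42 to 0.08, and turned to 0.17 under median-ratio scaling and 0.36 under quantile normalization. With 10 μM against LPS it was -0.07, with an interval of -0.31 to 0.18.

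The genes of APRIL and TWEAK are 685 bases apart, and 2 further transcripts are listed there. Tnfsfm13, a readthrough gene whose coordinates span both, and Tnfsf13os, an antisense gene, may share reads with them, and the sources used here do not state whether strand was used in quantification. Tnfsfm13 was at 31.1 ± 3.25 FPKM in control, 19.4 ± 1.26 with LPS, 22.4 ± 0.790 with 1 μM and 26.4 ± 1.26 with 10 μM. It was called lower with LPS (-0.68 ± 0.068, adjusted p = 6.4e-07, limma). Tnfsf13os was at 7.48 ± 1.35, 3.99 ± 0.0851, 4.05 ± 0.129 and 4.59 ± 0.546 FPKM in the same order, and was called lower with LPS (-0.85 ± 0.104, adjusted p = 4.5e-06). Neither was called with LPS under median-ratio scaling, with -0.26 and -0.45, and Tnfsf13os was not called after quantile normalization, also with -0.45. The values of Tnfsf12 and Tnfsf13 are uncertain to this extent.

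For the 5 members raised by LPS, the share of the rise that remained with the peptide was taken as the FPKM with peptide minus the control mean, over the LPS mean minus the control mean. At 1 μM, 86.4 ± 4.55% of the rise of Tnf remained, 74.7 ± 1.63% for Tnfsf9, 75.0 ± 13.6% for Tnfsf10 and 65.7 ± 5.49% for Tnfsf15 (SD, n = 3 libraries). At 10 μM, 29.2 ± 2.89% remained for Tnf and 9.52 ± 1.29% for Tnfsf9. For Tnfsf15 it was 0.379 ± 0.101% and for Tnfsf10 -0.762 ± 0.263%, a level just under the control mean. Tnfsf14 was at 158.8 ± 35.6% with 1 μM and 232.5 ± 27.8% with 10 μM. At 10 μM the libraries of these genes did not overlap, and among the genes that the peptide lowered Tnf kept the most of its rise. At 1 μM, Tnfsf10 spanned 61.6% to 88.7% and overlapped the other 3. These shares are a description without a test. Their SD covers the peptide libraries only and leaves out the spread of the control and LPS libraries, whose means were held fixed. For Tnfsf10 the control libraries had 0.129 ± 0.0555 FPKM and overlapped those with 10 μM. On the log2 scale, 78.1% of the rise of Tnf, 54.1% of that of Tnfsf9, 9.48% of that of Tnfsf15 and -3.20% of that of Tnfsf10 remained at 10 μM, and Tnfsf14 was at 159.6%. At 1 μM that scale gave 97.4% for Tnf, 94.2% for Tnfsf9, 89.5% for Tnfsf10, 91.8% for Tnfsf15 and 130.5% for Tnfsf14.

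**Figure D3:**
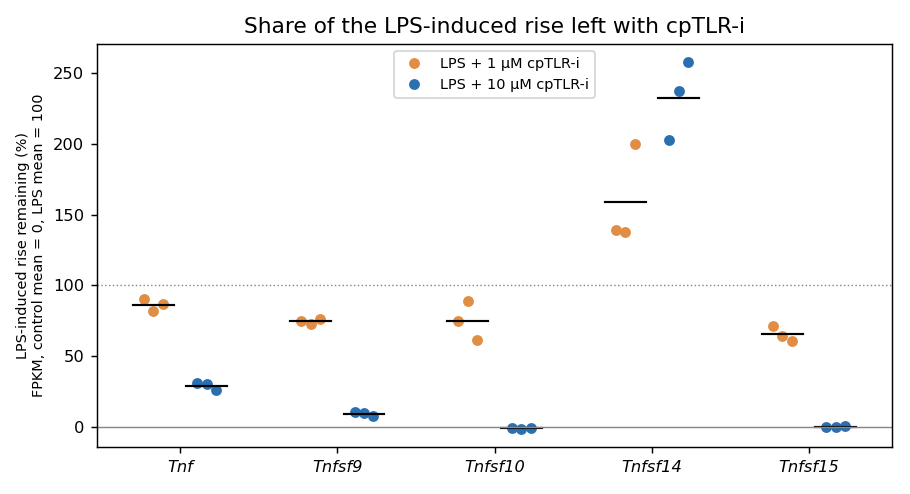
Percent of the LPS-induced rise in FPKM that remained with 1 μM or 10 μM cpTLR-i, with a point per library and a line at the mean of 3, where 0 is the control mean and 100 the LPS mean. At 10 μM, Tnf kept 29.2%, Tnfsf9 9.52%, Tnfsf15 0.379% and Tnfsf10 -0.762%, while Tnfsf14 stood at 232.5%.

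The genes whose pattern was most like that of each member were found by the root mean square difference of log2(FPKM + 0.25), taken relative to the control mean, over 12 libraries. The 3 most like Tnf were Acod1, which makes itaconate, Socs3, a feedback inhibitor of cytokine signaling, and the chemokine gene Cxcl1, with differences of 0.48, 0.51 and 0.56. Acod1 was at 2.20 ± 0.0917 FPKM in control, 975.5 ± 29.5 with LPS, 902 ± 20.4 with 1 μM and 149 ± 7.81 with 10 μM. Nearest to Tnfsf9 were Cd69, Cxcl3 and Marcksl1, at 0.52, 0.56 and 0.57. Nearest to Tnfsf15 were Mx1 and Oasl1, both interferon-stimulated genes, and Nos2, the inducible nitric oxide synthase gene, at 0.18, 0.19 and 0.23.

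Mx1 was at 1.62 ± 0.524 FPKM in control, 287 ± 17.3 with LPS, 188 ± 14.4 with 1 μM and 2.64 ± 0.131 with 10 μM. For Tnfsf10 the nearest were Slfn8, U90926 and the interferon-inducible GTPase gene Irgm1, at 0.17, 0.23 and 0.23. Tnfsf14 was nearest to Iglon5, Msantd3 and Rgl1, at 0.25, 0.26 and 0.27, and Rgl1 was at 9.09 ± 0.392 FPKM in control, 27.6 ± 0.657 with LPS, 26.3 ± 0.303 with 1 μM and 45.2 ± 1.71 with 10 μM. Tnfsf12 was nearest to Zfp511, Cmip and Nup88, Tnfsf13 to Borcs7, Tmem230 and R3hdm2, and Tnfsf13b to Rps16-ps2, Rps23-ps1 and Cpq, with differences of 0.04 to 0.10. Among the members themselves, Tnfsf12, Tnfsf13 and Tnfsf13b were the closest to each other, with differences of 0.28 to 0.34. Of the members raised by LPS, Tnf and Tnfsf9 differed by 1.41 and Tnfsf9 and Tnfsf15 by 1.62. Tnfsf10 and Tnfsf14 differed by 1.75, and Tnfsf10 and Tnfsf15 by 2.66. This measure depends on the size of changes as well as on their direction. Pearson correlations of log2(FPKM + 0.25) over the 12 libraries were 0.97, 0.91, 0.25 and 0.99 for these 4 pairs in the same order. By correlation, Tnfsf10 was thus more like Tnfsf15 than like Tnfsf14. Likeness here describes 12 libraries that share 4 groups. It also depends on the added 0.25 FPKM, which shrinks the changes of genes near 0 FPKM. In control the means of Tnfsf10 and Tnfsf15 were 0.129 and 0.0852 FPKM, so their fold changes in FPKM can differ from those of their nearest genes.

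Of 9 other ligands of the superfamily looked for, 7 were in the table and 2, Tnfsf4 and Tnfsf8, were tested. Tnfsf4 encodes OX40 ligand, a T cell costimulator, and was at 0.545, 0.645 and 0.596 FPKM in control, and 56.6, 62.8 and 59.3 in the LPS group. It was 54.3, 47.4 and 48.3 FPKM at 1 μM, and 2.35, 2.65 and 2.51 at 10 μM. All groups were separate. LPS raised it by 6.15 ± 0.066 on the log2 scale (adjusted p = 9.3e-17, limma) and 10 μM lowered it by 4.44 ± 0.066 against LPS (adjusted p = 8.1e-15), while 1 μM gave -0.25 ± 0.066 (adjusted p = 0.019), under the fold minimum. Tnfsf8, which encodes CD30 ligand and lies 86142 bases from Tnfsf15, was at 0.473 ± 0.0433 FPKM in control, 2.64 ± 0.327 with LPS, 2.04 ± 0.153 with 1 μM and 0.932 ± 0.178 with 10 μM. LPS raised it by 1.99 ± 0.118 (adjusted p = 2.9e-09) and 10 μM lowered it by 1.29 ± 0.118 against LPS (adjusted p = 3.9e-07).

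Cd70, a ligand of CD27, was listed at 0 in all control and all 10 μM libraries. The LPS libraries had 0.473, 0.520 and 0.482 FPKM and the 1 μM libraries 0.335, 0.374 and 0.453, so that 1 library reached 0.5 FPKM. Ltb, which encodes lymphotoxin-β and lies 3061 bases from Tnf, was at 0.541 ± 0.0920 FPKM in control, 0.291 ± 0.0886 with LPS, 0.386 ± 0.0562 with 1 μM and 0.349 ± 0.112 with 10 μM. Of the other 3, Tnfsf18 was at 0.0224 ± 0.0196, 0.109 ± 0.0161, 0.0821 ± 0.0183 and 0.340 ± 0.0955 FPKM in the same order. Eda stayed at or under 0.0253 FPKM in every library, and Fasl was listed above 0 in 1 library only, at 0.0133. These 5 genes were too low to be tested in the main fit. In the fit with no filter, 10 μM against LPS gave 0.71 ± 0.103 for Tnfsf18 (adjusted p = 0.00026, limma), -1.57 ± 0.061 for Cd70 (adjusted p = 1.3e-08) and 0.14 ± 0.168 for Ltb (adjusted p = 0.59).

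**Figure D4:**
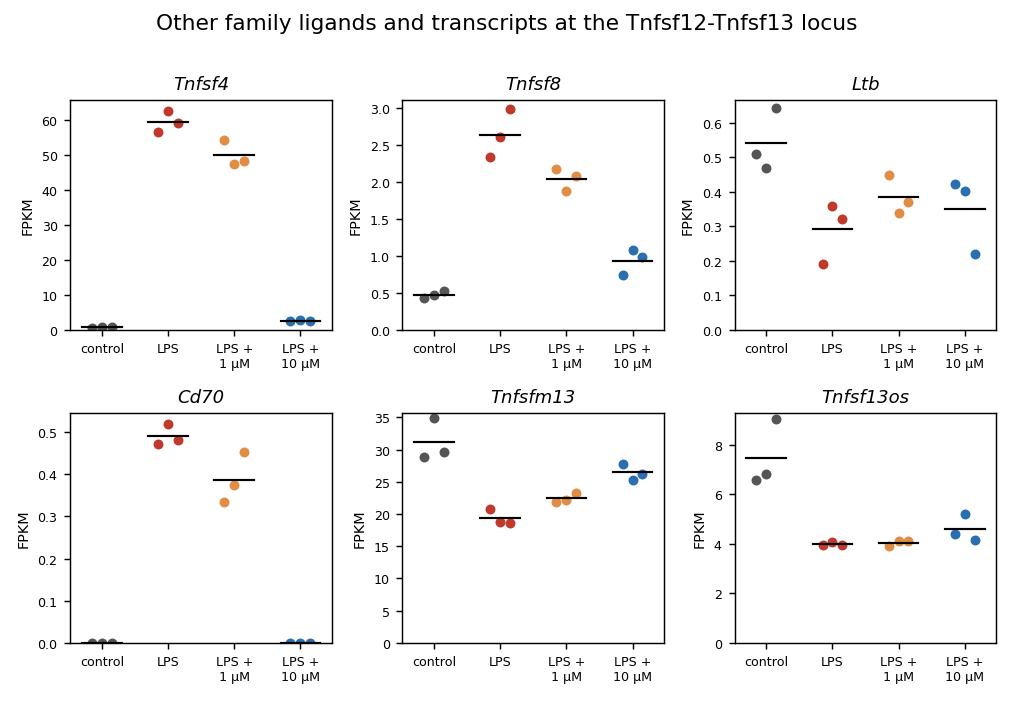
FPKM per library of 4 other family ligands and of the 2 transcripts that overlap Tnfsf12 and Tnfsf13, with a line at the mean of each group of 3. Tnfsf4, Tnfsf8 and Cd70 are highest with LPS and low with 10 μM cpTLR-i, where Cd70 is listed at 0, while Ltb and both overlapping transcripts have their highest mean in control.

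Of 14 receptors of these ligands, 9 were tested. LPS raised 1 and lowered 2 of them, where 11.0% of all genes were called higher and 35.8% lower. With 10 μM against LPS 3 were higher and 2 lower, where 21.5% of all genes were higher and 9.44% lower, and the median log2 fold change was 0.31 where that of all genes was 0.22. With 1 μM, 0 were called, also at an unadjusted p under 0.05 with the fold minimum. Tnfrsf12a, which encodes the TWEAK receptor Fn14, was at 2.22, 2.48 and 2.17 FPKM in control, and 3.21, 3.64 and 3.08 in the LPS group. It was 3.68, 4.02 and 4.28 FPKM at 1 μM, and 18.4, 18.7 and 17.7 at 10 μM. It stood apart with 10 μM, where it rose by 2.38 ± 0.073 against LPS (adjusted p = 5.3e-12, limma). For Tnfrsf12a, LPS against control gave 0.49 (adjusted p = 3.0e-05, limma), under the fold minimum. That difference was called higher under median-ratio scaling (0.87) and quantile normalization (1.00). Tnfrsf1b, which encodes TNF receptor 2, was at 176 ± 2.92 FPKM in control, 447 ± 4.78 with LPS, 482 ± 11.4 with 1 μM and 266 ± 6.75 with 10 μM. It fell by 0.75 ± 0.028 with 10 μM against LPS (adjusted p = 4.3e-11). Tnfrsf14, which encodes the LIGHT receptor HVEM, fell by 0.91 ± 0.090 (adjusted p = 9.1e-07), from 16.5 ± 0.763 to 8.72 ± 1.34 FPKM. Tnfrsf23, a decoy receptor of TRAIL in mice, rose by 0.62 ± 0.079 (adjusted p = 9.45e-06), a call lost with 0.39 under median-ratio or quantile scaling, with 0.56 at a pseudocount of 1 and with 0.58 without 10 μM library 3. Tnfrsf9, the receptor of the Tnfsf9 product, had group means of 0.0483 to 0.190 FPKM and was not tested.

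Of 9 genes for shedding and cleavage of the ligands, 8 were tested. LPS raised 5 and lowered 1, beside 11.0% higher and 35.8% lower over all genes. With 10 μM against LPS 0 were higher and 3 lower, beside 21.5% and 9.44% over all genes, and the median log2 fold change was -0.21 beside 0.22. Rhbdf2, which encodes iRhom2, a cofactor that carries the TNF-releasing protease ADAM17 to the cell surface, was at 13.1 ± 0.224 FPKM in control, 62.0 ± 1.56 with LPS, 59.2 ± 1.10 with 1 μM and 29.8 ± 1.82 with 10 μM. It fell by 1.05 ± 0.042 with 10 μM against LPS (adjusted p = 8.1e-11, limma). Its relative Rhbdf1 fell by 0.84 ± 0.119 (adjusted p = 2.8e-05), from 1.14 ± 0.0255 to 0.532 ± 0.101 FPKM, and this was -0.48 and not called with a pseudocount of 1. Sppl2a, an intramembrane protease gene, fell by 0.65 ± 0.066 (adjusted p = 1.1e-06), and Sppl2b had 5.03 ± 0.168 FPKM in the LPS group against 7.36 ± 0.219 at 10 μM, under the fold minimum. For LPS against control, Sppl2b was no longer called lower under median-ratio scaling (-0.52) or quantile normalization (-0.58). Sppl2a was no longer called higher at a pseudocount of 1 (0.58). Its call was also lost without control library 2 (0.56), LPS library 2 (0.56) or LPS library 3 (0.58).

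All 11 regulators of Tnf mRNA were tested. LPS raised 3 and lowered 3, beside 11.0% higher and 35.8% lower over all genes. With 10 μM against LPS 3 were higher and 1 lower, near the 21.5% and 9.44% of all genes, and the median log2 fold change of 0.27 was near the 0.22 of all genes. Zfp36l2, which encodes an mRNA-destabilizing zinc finger protein related to tristetraprolin, was at 68.2, 72.3 and 67.8 FPKM in control, and 6.88, 5.97 and 6.43 in the LPS group. It was 7.75, 8.08 and 8.92 FPKM at 1 μM, and 37.2, 36.7 and 37.4 at 10 μM. All groups were separate, and it rose by 2.49 ± 0.057 with 10 μM against LPS (adjusted p = 3.1e-13, limma). Zfp36l1, of the same family, rose by 0.90 ± 0.072 (adjusted p = 1.1e-07). Tia1, which encodes a translational silencer that binds AU-rich elements, rose by 0.77 ± 0.075 (adjusted p = 8.3e-07), and this was 0.55 and not called under median-ratio scaling and 0.47 under quantile normalization. Zc3h12a, which encodes the ribonuclease Regnase-1, fell by 0.71 ± 0.040 (adjusted p = 3.2e-09), from 64.4 ± 1.91 to 39.2 ± 1.10 FPKM, and stayed above its control level of 5.31 ± 0.235. With 1 μM, Zfp36l1 went the other way, from 4.72 ± 0.0777 FPKM with LPS to 3.16 ± 0.396. This was -0.55 on the log2 scale (adjusted p = 0.00036, limma), under the fold minimum. It was called lower with TPM (-0.60), median-ratio scaling (-0.62) and quantile normalization (-0.59).

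All 25 genes of proximal signaling at TNF receptors were tested. LPS raised 11 and lowered 3, beside 11.0% higher and 35.8% lower over all genes. With 10 μM against LPS 2 were higher and 9 lower, beside 21.5% and 9.44% over all genes, and the median log2 fold change was -0.19 beside 0.22. Of these 9, the 4 with the largest change were Traf1, an adaptor, Tnfaip3, which encodes the NF-κB inhibitor A20, Rnf31, which encodes the linear ubiquitin ligase HOIP, and Cflar, which encodes the caspase-8 inhibitor c-FLIP. Traf1 was at 0.529 ± 0.0137 FPKM in control, 55.0 ± 0.973 with LPS, 48.9 ± 0.10 with 1 μM and 10.8 ± 0.769 with 10 μM. Tnfaip3 was at 5.43 ± 0.0574, 334 ± 7.06, 264 ± 7.90 and 78.8 ± 6.75 FPKM in the same order. They fell by 2.32 ± 0.047 and 2.08 ± 0.050 on the log2 scale with 10 μM against LPS (adjusted p = 1.2e-13 and 5.5e-13, limma). Rnf31 fell by 1.96 ± 0.036 and Cflar by 1.67 ± 0.057 (adjusted p = 4.9e-14 and 1.8e-11).

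**Figure D5:**
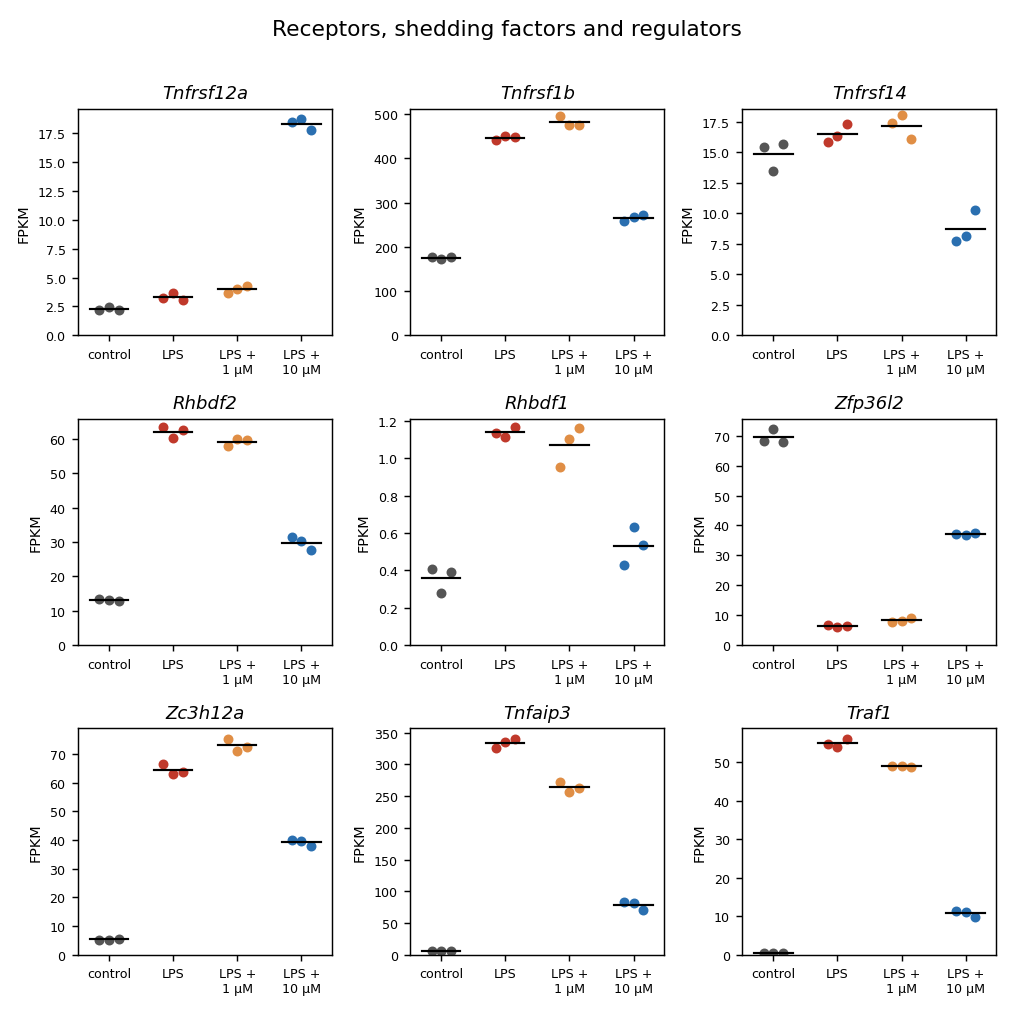
FPKM per library of 3 receptor genes, 2 iRhom genes, 2 regulators of Tnf mRNA and 2 genes of proximal signaling, on linear axes from 0 with a line at the mean of each group of 3. Tnfrsf12a is highest with 10 μM cpTLR-i, and Zfp36l2 is lowest with LPS and with 1 μM. Rhbdf2, Tnfaip3 and Traf1 are high with LPS and lower with 10 μM.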

How the data were processed

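Per the file headers, FPKM and TPM of 12 libraries were deposited. The authors aligned reads to mm10 with HISAT2 2.1.0 and computed FPKM and TPM with StringTie 2.1.3b. Since read counts were not among the values used here, DESeq2, the study's tool, was not run. Low products of FPKM and length, in single-transcript genes, were within 0.05 of whole multiples of their mode in 18.0% to 29.0% of cases, so depth is unknown.

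FPKM were transformed as log2(FPKM + 0.25), and the 12315 genes reaching 0.5 FPKM in 3 or more libraries entered a limma 3.58.1 fit (R 4.3.3, lmFit and eBayes with a trend) of the 4 group means. Contrasts were two-sided, and p-values were adjusted by Benjamini-Hochberg over these genes. The code was tested on simulated data. Python 3.11.15 with pandas 2.3.3 and matplotlib 3.10.9 made tables, motif searches and figures. Positions and sequences came from RefSeq (GRCm38.p6), matched by gene ID or symbol.

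Members, lists, tests and alternatives were chosen with earlier results of these data known. Named genes are the members, the other family ligands, the 4 genes of each pathway list that differed most between 10 μM and LPS among those called anywhere, the highest markers, and for each tested member the 3 nearest genes that had at least 2 FPKM in a group and no predicted-gene symbol. Tnfsfm13, Tnfsf13os, Tnfrsf9, Cd3e, Cd3g, Cd4, Ly6g, Mpo, Prtn3, Elane, Lck, Zbtb46, Pdgfrb and Klrk1 were added after their values were seen. The alternatives used TPM, other pseudocounts (0.1 or 1), another filter (none, or 1 FPKM), median-ratio scaling or quantile normalization. They also used eBayes with no trend, fits restricted to a pair of groups, a replicate block, leaving out libraries singly, p-values without adjustment, and no fold minimum.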

Additional observations from a re-analysis of the deposited data

How the results depend on the processing

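The number of members called changed in these cases. For LPS against control, 1 member instead of 0 was called lower after quantile normalization, and 2 with no fold minimum. For 1 μM against LPS, 1 instead of 0 was called higher with no fold minimum. For 10 μM against LPS, 1 instead of 2 was called higher under median-ratio scaling. For 10 μM against 1 μM, 0 instead of 1 was called higher under median-ratio scaling and 2 with no fold minimum. For 10 μM against control, 1 instead of 0 was called lower with no fold minimum, and 3 instead of 4 higher with a pseudocount of 1, which lost Tnfsf15. With TPM or with no filter Lta was tested and called, which gave 6 instead of 5 higher for LPS against control, and 5 instead of 4 lower for 10 μM against LPS and against 1 μM. With each library left out in turn, the number called lower was 0 to 1 for LPS against control, where 1 was called without control library 2 or without LPS library 1. It was also 0 to 1 for 1 μM against LPS, where the 1 call was lost without LPS library 3 or without 1 μM library 3, and no other count of members changed. Over all genes, pseudocount 1 left 17 higher for 1 μM against LPS instead of 61, 1251 higher for 10 μM against 1 μM instead of 1964 and 1322 lower for 10 μM against control instead of 2108. TPM gave 118 lower instead of 77 for 1 μM against LPS. Over all genes, quantile normalization gave 2420 lower for LPS against control, 38 higher for 1 μM against LPS, 1652 higher for 10 μM against LPS and 1330 lower for 10 μM against control.

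With no fold minimum the counts over all genes were 2209 higher and 8439 lower for LPS against control, 1803 and 537 for 1 μM against LPS, 6917 and 2174 for 10 μM against LPS, 6118 and 2234 for 10 μM against 1 μM, and 2677 and 6119 for 10 μM against control. Deviations of same-numbered libraries from their group means had correlations of -0.17 to 0.15, over 0.1 in 1 of 18 pairs. Those of differently numbered libraries had -0.17 to 0.20, over 0.1 in 7 of 36 pairs. No pairing by number was seen, but with 3 libraries per group this cannot exclude that same-numbered libraries share a mouse or culture. The replicate block left each count of members as it was, with 5 higher for LPS against control, and 4 lower and 2 higher for 10 μM against LPS. Of 960 values of single members under the alternatives, 947 kept their side of the threshold, 5 lost a call, 8 gained one and 0 reversed a call. The causes were not tested. With FPKM alone, the precision of low values such as those of Lta and of Tnfsf10 in control cannot be given.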
